A study of Mus musculus with 36 samples.

Results

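Described here are 10 genes by which fat cells store lipid and signal: Adipoq, Retn, Adig, Cfd, Scd1, Pck1, Car3, Plin4, Lpl and Fabp4. They were chosen by symbol, with earlier results of these data known. Every probe set that the array annotation pairs with one of these symbols alone was taken, in both genotypes and at all 6 ages. This gave 12 probe sets for 9 of the 10 genes, out of 12422 probe sets on the array other than controls. Scd1 was read by 3 probe sets, Lpl by 2 and each other gene by 1, and all 12 passed the filter on low signal. Cfd, which encodes the complement protease adipsin, was not analysed here. The tissue was the diaphragm, the main breathing muscle, of mdx and control mice. Mdx mice carry a mutation of the dystrophin gene and are a model of Duchenne muscular dystrophy. RNA was read on 1-colour arrays at 7, 14, 23, 28, 56 and 112 days of age, with 3 arrays for each genotype and age, or 36 arrays in 12 groups. The labels give no treatment, strain, sex or pooling. Since they do not state that each array of a group is another animal, the p-values below describe the spread from array to array, and this may be technical.

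White fat cells take up fatty acids that lipoprotein lipase releases from blood lipoproteins, carry them on small binding proteins, join them to glycerol and keep the triglyceride in a droplet coated by perilipins. They also release hormones, of which adiponectin raises fatty acid oxidation in muscle and liver, and resistin opposes insulin in mice. Fat cells lie between the bundles of a muscle and on its surface, so RNA from whole muscle holds some of theirs. In such RNA, fewer cells of a type and less RNA per cell cannot be told apart. Several of the genes are not private to fat: muscle fibres make Lpl and Car3, and capillary endothelium and macrophages make Fabp4.

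The promoters of Adipoq, Adig and Plin4 are shown because these genes were among those that differed between the genotypes, and because each holds a match to a motif searched for. Each is the RefSeq sequence (GRCm38.p6) from 250 bases before to 50 bases after the annotated start of the gene, with motif matches on either strand in capitals. The windows are chr16:23146286-23146585 on the plus strand for Adipoq, chr2:158502362-158502661 on the plus strand for Adig and chr17:56109733-56110032 on the minus strand for Plin4.
Adipoq: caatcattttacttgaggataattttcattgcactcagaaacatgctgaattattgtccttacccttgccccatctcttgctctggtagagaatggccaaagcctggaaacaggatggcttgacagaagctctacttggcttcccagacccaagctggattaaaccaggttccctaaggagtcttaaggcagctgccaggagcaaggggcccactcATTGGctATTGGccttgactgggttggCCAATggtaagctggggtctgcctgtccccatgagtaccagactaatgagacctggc
Adig: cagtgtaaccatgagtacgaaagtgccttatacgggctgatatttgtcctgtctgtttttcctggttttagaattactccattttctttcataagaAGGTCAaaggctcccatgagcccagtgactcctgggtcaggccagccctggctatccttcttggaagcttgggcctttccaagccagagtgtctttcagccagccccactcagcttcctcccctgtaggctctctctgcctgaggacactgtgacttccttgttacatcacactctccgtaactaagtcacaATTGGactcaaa
Plin4: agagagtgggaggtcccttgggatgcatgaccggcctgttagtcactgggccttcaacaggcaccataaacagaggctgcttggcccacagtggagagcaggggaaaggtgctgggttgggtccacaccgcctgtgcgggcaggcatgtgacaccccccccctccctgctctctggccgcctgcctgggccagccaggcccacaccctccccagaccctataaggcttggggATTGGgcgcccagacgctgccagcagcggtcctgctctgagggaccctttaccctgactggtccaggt
The motifs searched on both strands were TATAAA of the core promoter, the CCAAT box, TTGCNNAA as bound by the C/EBP factors of fat cells, AGGTCA as bound by nuclear receptors, and the direct repeat AGGTCANAGGTCA as bound by PPAR with RXR, every match of which is also a match to AGGTCA. Of the 9 genes, 5 had a promoter in the table (Adipoq, Retn, Adig, Pck1 and Plin4). CCAAT was found in 3 of these 5, with 3 matches in Adipoq and 1 each in Adig and Plin4, and it is found in 37.4% of all 32851 promoters of this length. AGGTCA was found in 1 of 5, Adig, and is found in 16.3% of all. TATAAA (13.6% of all), TTGCNNAA (10.8%) and the direct repeat (0.0396%) were found in 0 of 5.

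The deposited signals had been brought to a common level per array, with a median signal of 450.6 to 723.4. Of 13 skeletal muscle markers, such as the myosin Myh4 and creatine kinase Ckm, the summed signal was 130869.1 or more on each of the 36 arrays, so muscle genes were present in every library. Myh2, the myosin of one oxidative fibre type, was the dim one among them, at a mean of 169.5 in mdx and 122 in control diaphragm at 56 days. Albumin, which liver makes, read above 10000 on 9 arrays. At 56 days it read 179.4 to 347.2 on mdx arrays and 668.1 to 15482.9 on control arrays, and at 112 days it read 773.5 to 15430.5 on mdx arrays and 235.6 to 37444.4 on control arrays.

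At 56 and 112 days most of the fat genes were lower in mdx than in control diaphragm, and at no age was any of them called higher. Here and below, differences are mdx minus control on the log2(signal + 32) scale, and a call is an adjusted p under 0.05 in limma, with adjustment over all 9291 tested probe sets. At 56 days 9 of 12 probe sets were called lower, against 7.38% of all tested probe sets, and 0 of 12 were called higher, against 9.27% of all. They read 7 of the 9 genes: Adig, Adipoq, Car3, Lpl, Pck1, Plin4 and Scd1. The 112-day count was 8 of 12 lower (4.52% of all) and 0 higher (7.65% of all), and the lower ones were Adig, Car3, Lpl, Plin4, Retn and Scd1. The median difference of the 12 probe sets was -1.38 at 56 days and -1.25 at 112 days, beside 0.15 and 0.02 over all tested probe sets. With quantile normalization the 56-day median of all probe sets was 0.01 and that of the fat genes -1.37.

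Earlier ages gave fewer calls. At 7 days 1 of 12 probe sets was called lower (0.409% of all), that of Car3. At 14 days 0 of 12 were called lower (0.0323% of all), and in limma 0 of 12 reached an unadjusted p under 0.05, against 609 of all. The 23-day call was 1 of 12 (0.807% of all), Plin4, and at 28 days 4 of 12 were called (0.538% of all), those of Car3 and Plin4 and 2 of Scd1. The count of higher calls was 0 of 12 at 7 days (0.0538% of all), 14 days (0.161%), 23 days (2.68%) and 28 days (2.42%). At an unadjusted p under 0.05 in limma 2 of 12 were higher at 7 days, and 0 at each later age. The median difference of the 12 was -0.31 at 7 days, -0.03 at 14 days, -0.23 at 23 days and -0.87 at 28 days, beside 0.04, -0.00, -0.01 and -0.04 over all tested probe sets. For the mean over the 6 ages 9 of 12 were called lower (7.41% of all) and 0 higher (10.4%), with a median of -0.72 beside 0.03 over all.

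The arrays of the genotypes separated for more of the probe sets from 23 days on. All 3 mdx arrays lay below all 3 control arrays for 1 of 12 probe sets at 7 days (7.16% of all tested probe sets), 0 at 14 days (6.05%), 5 at 23 days (10.3%), 7 at 28 days (10%), 9 at 56 days (12.7%) and 10 at 112 days (9.84%). All 3 mdx arrays lay above all 3 control arrays for 2 at 7 days (8.22%), Lpl (95611_at) and Fabp4, and for 2 at 14 days (6.87%), Adipoq and Plin4. From 23 days on this was so for 0 of 12 (12.6% of all at 23 days, 11.5% at 28 days, 24.2% at 56 days and 13.7% at 112 days). The size of the difference depended on age (an F test over the 6 ages in limma) for 8 of 12 probe sets, against 8.93% of all. These read Adipoq, Adig, Scd1, Car3, Plin4 and Lpl.

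**Figure D1:**
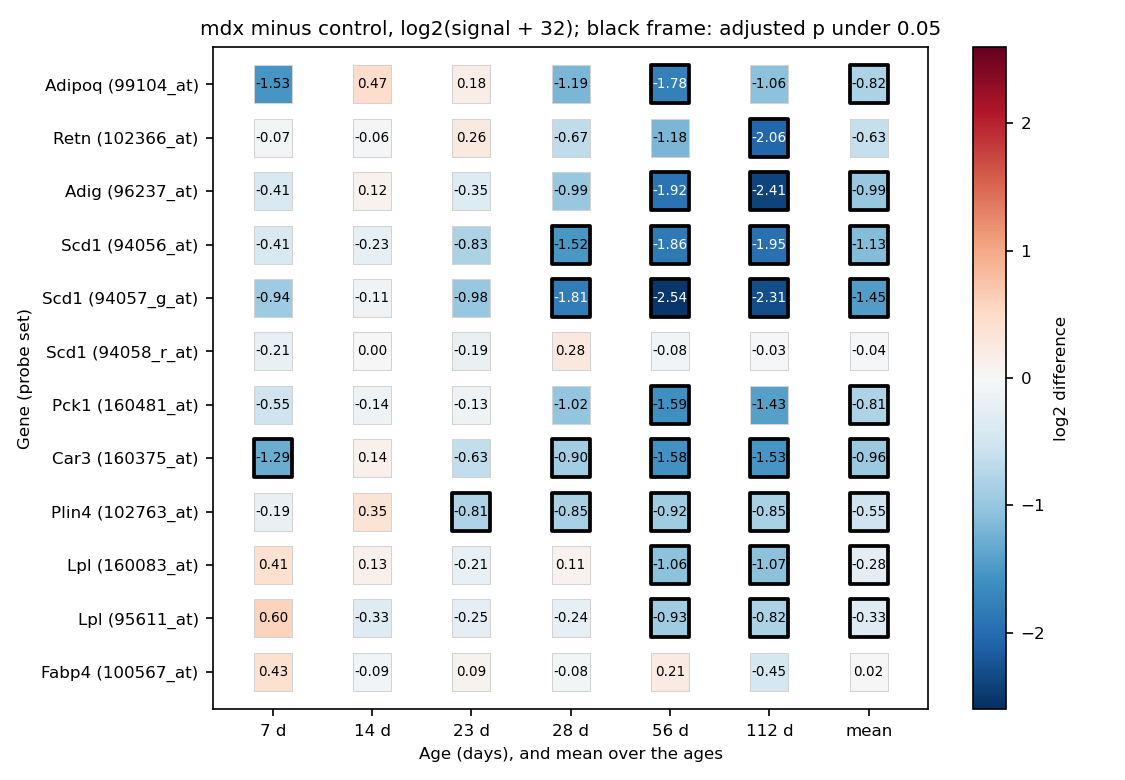
Difference between mdx and control diaphragm for each of the 12 probe sets (rows) at each age and for the mean over the ages (columns), as log2(signal + 32), with colour from blue (lower in mdx) to red (higher) and a black frame where the adjusted p is under 0.05. Framed cells are few at 7 to 23 days and number 9 at 56 days and 8 at 112 days, all of them lower in mdx.

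Adiponectin mRNA (Adipoq, 99104_at) was lower in mdx diaphragm at 56 days. It read 1747.7, 1991.2 and 2880.9 in mdx diaphragm, against 7223.6, 9512.4 and 6119.3 in control diaphragm. The highest mdx array lay below the lowest control array, and the log2 difference was -1.78 ± 0.421 (SE, adjusted p = 0.00365), or 3.44-fold lower. The 112-day signals were 3854.8, 1779.8 and 3058.9 in mdx diaphragm, against 5269.2, 5874.8 and 6246.7 in control diaphragm. The arrays again did not overlap, but the difference of -1.06 was not a call (adjusted p = 0.101). At 28 days Adipoq read 2401.3, 2461.4 and 1675.7 in mdx diaphragm, against 3992.4, 5213.0 and 5779.2 in control diaphragm, likewise without overlap and without a call (-1.19, adjusted p = 0.147).

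At the younger ages Adipoq followed no single direction. The 7-day signals were 1050.8, 679.3 and 434.4 in mdx diaphragm, against 5040.4, 991.3 and 1640.4 in control diaphragm, where control replicate 1 stood far above the other arrays. Without that array the difference was -0.88 (adjusted p = 0.632), and with it -1.53 (adjusted p = 0.119). Without control replicate 2 it was -2.03 and a call (adjusted p = 0.0359). At 14 days the signals were 2354.5, 1787.9 and 1916.7 in mdx diaphragm, against 1633.0, 1241.5 and 1476.5 in control diaphragm, so all mdx arrays were the higher ones, with a difference of 0.47 (adjusted p = 0.966). At 23 days they were 8260.8, 2028.6 and 2762.3 in mdx diaphragm, against 2288.1, 3505.0 and 3981.4 in control diaphragm. Here mdx replicate 1 was the highest of the 6, and the difference was 0.18 with it (adjusted p = 0.916) and -0.42 without it (adjusted p = 0.923). Over the 6 ages Adipoq averaged -0.82 ± 0.172 (SE, adjusted p = 0.000758).

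Resistin mRNA (Retn, 102366_at) was more scattered than Adipoq. Its 112-day signals were 946.0, 198.3 and 279.8 in mdx diaphragm, against 1476.4, 1588.2 and 2061.8 in control diaphragm. All mdx arrays lay below the control arrays, 2 of them far below, and the difference of -2.06 ± 0.676 was a call (SE, adjusted p = 0.0426). That call depended on single arrays. It did not hold with mdx replicate 2 (-1.64, 0.188) or 3 (-1.86, 0.134) left out, nor with control replicate 1 (-2.16, 0.0714), 2 (-2.11, 0.0833) or 3 (-1.92, 0.1), the brackets giving the difference and its adjusted p. Without the arrays high in albumin it was -1.45 (adjusted p = 0.476). At 56 days Retn read 1128.0, 178.7 and 901.8 in mdx diaphragm, against 1596.0, 1908.3 and 806.7 in control diaphragm. The groups overlapped, and the difference of -1.18 was not a call (adjusted p = 0.228).

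Before 56 days the Retn arrays of the genotypes overlapped at every age. Mdx arrays ran from 43.5 to 351.5 and control arrays from 45.4 to 594.9 at 7 and 14 days, when the gene was dim. At 23 days Retn read 2139.4, 707.0 and 568.3 in mdx diaphragm, against 736.7, 1173.4 and 577.4 in control diaphragm, with the highest signal on mdx replicate 1, the array that was also highest for Adipoq. The 28-day difference was -0.67 (adjusted p = 0.789), and the mean over the ages was -0.63 (adjusted p = 0.121), neither of them a call.

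**Figure D2:**
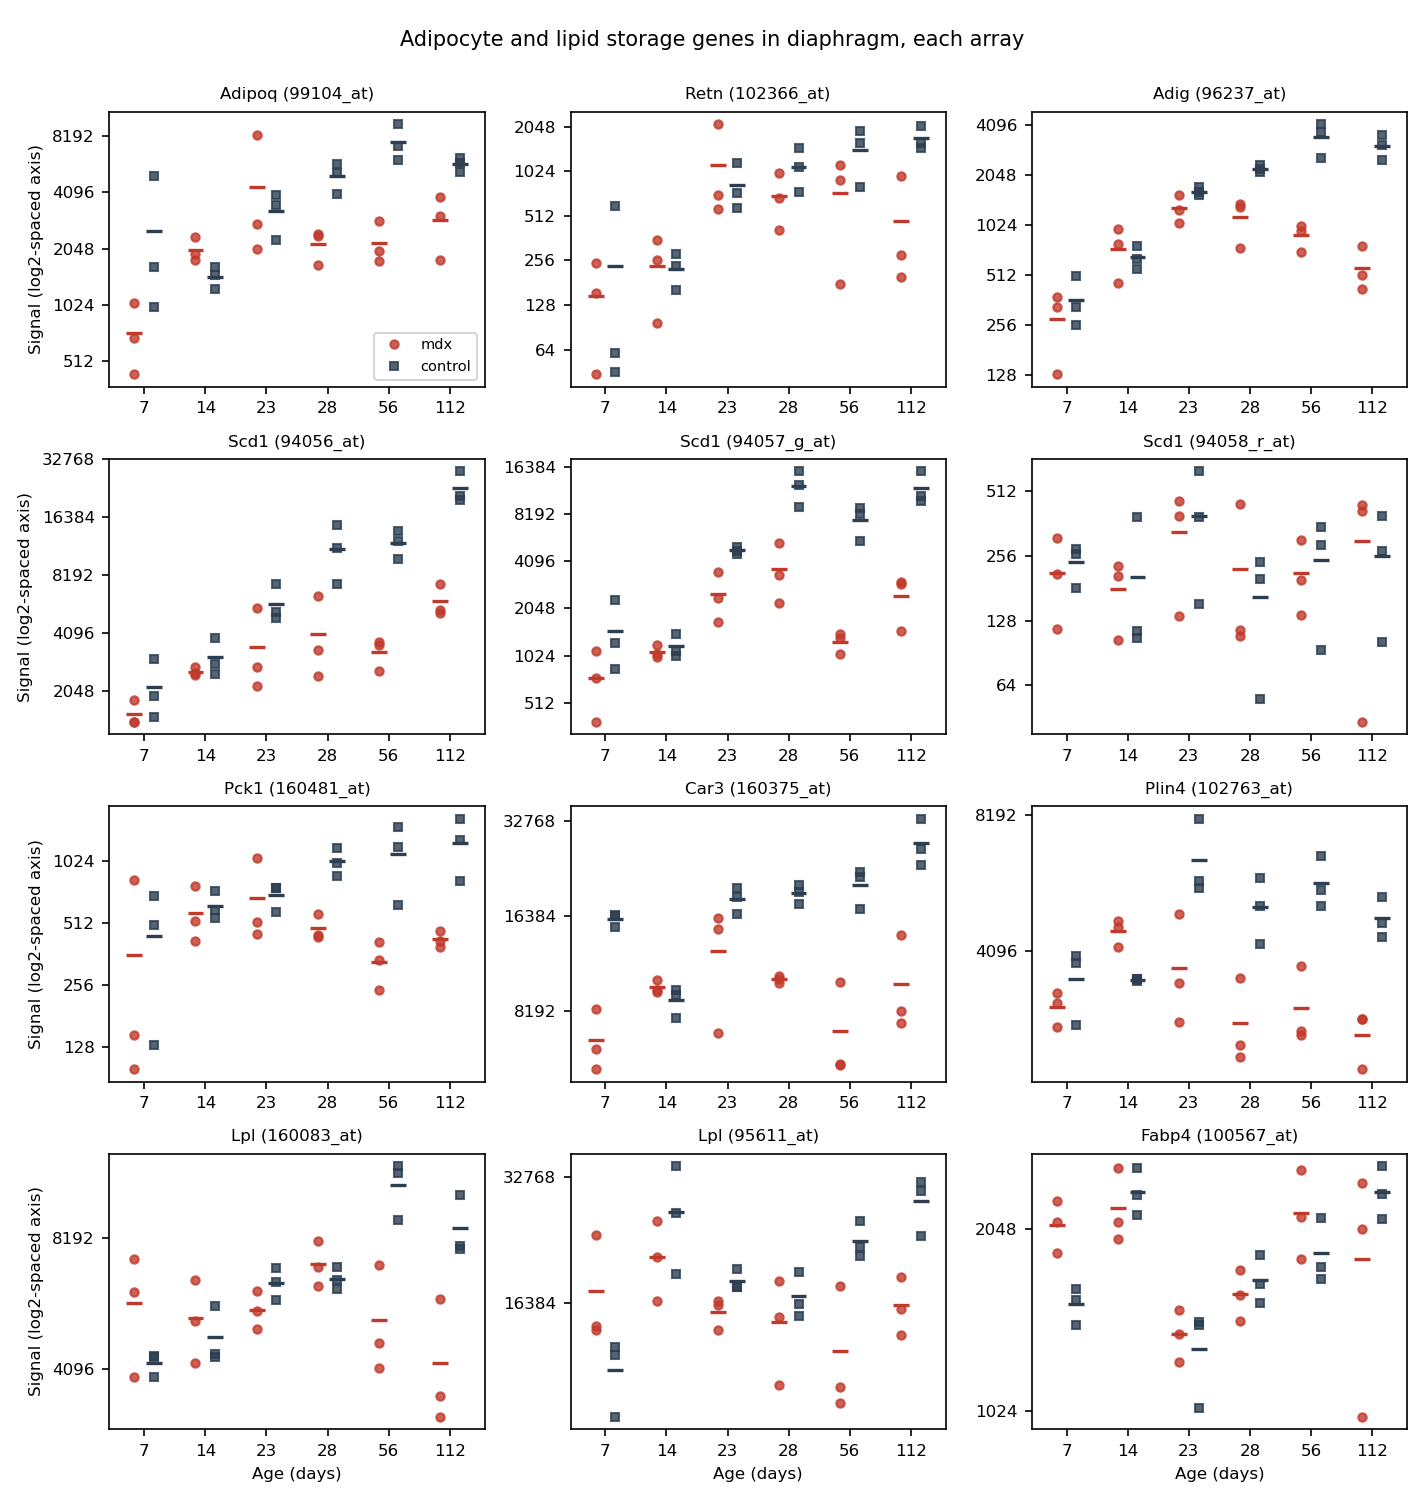
Signal of each of the 12 probe sets on every array, on a log2-spaced axis, by age in days, with mdx arrays as red circles left of control arrays as dark squares and a bar at each group's mean. The red circles lie below the dark squares at 56 and 112 days in most panels, while those of Fabp4 and of the dim Scd1 probe set overlap at both ages.

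Adipogenin (Adig, 96237_at), a small protein of fat cells that takes part in forming the lipid droplet, had the largest fitted difference among the 12 probe sets at 112 days. It read 759.4, 508.0 and 419.9 in mdx diaphragm, against 2532.0, 3582.5 and 3090.8 in control diaphragm. Each control array was more than 3 times the highest mdx array, and the log2 difference was -2.41 ± 0.302 (SE, adjusted p = 9.46e-07), or 5.31-fold lower. At 56 days the signals were 1012.2, 706.9 and 937.1 in mdx diaphragm, against 3696.5, 4143.8 and 2590.6 in control diaphragm, again without overlap (-1.92, adjusted p = 4.2e-05). Leaving out any 1 of the 6 arrays kept the difference at -2.64 to -2.23 at 112 days and -2.12 to -1.78 at 56 days, each a call.

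The difference in Adig was not called at the earlier ages. At 7 days it read 374.9, 327.6 and 128.8 in mdx diaphragm, against 502.7, 255.1 and 327.8 in control diaphragm, and at 14 days 783.4, 972.8 and 454.4 in mdx diaphragm, against 556.7, 633.4 and 763.9 in control diaphragm. The arrays overlapped at both ages, with differences of -0.41 (adjusted p = 0.645) and 0.12 (adjusted p = 0.994). The 23-day signals were 1541.0, 1263.0 and 1049.3 in mdx diaphragm, against 1544.8, 1604.5 and 1722.3 in control diaphragm, and the highest mdx array lay just under the lowest control array (-0.35, adjusted p = 0.708). The 28-day signals were 1373.1, 1318.9 and 743.0 in mdx diaphragm, against 2208.2, 2356.0 and 2126.9 in control diaphragm. They did not overlap, and the difference of -0.99 just missed the threshold (adjusted p = 0.0733). Over the ages Adig averaged -0.99 ± 0.123 (SE, adjusted p = 3.56e-07).

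Stearoyl-CoA desaturase 1 (Scd1), which puts the double bond into stored fatty acids, was lower in mdx diaphragm from 28 days on by 2 of its 3 probe sets. By 94056_at it read 3358.5, 6393.4 and 2435.7 in mdx diaphragm, against 7403.7, 11359.2 and 14990.4 in control diaphragm at 28 days. It read 3567.5, 2608.5 and 3670.2 in mdx diaphragm, against 12297.0, 13820.3 and 9913.9 in control diaphragm at 56 days, and 7357.7, 5209.2 and 5385.2 in mdx diaphragm, against 28374.6, 21179.0 and 20142.4 in control diaphragm at 112 days. At each of these ages all control arrays were above all mdx arrays, by log2 differences of -1.52 (adjusted p = 0.00204), -1.86 (adjusted p = 7.38e-05) and -1.95 (adjusted p = 3.47e-05), with an SE of 0.306. At 7 days the signals were 1846.7, 1419.3 and 1415.9 in mdx diaphragm and 3008.5, 1507.1 and 1933.8 in control diaphragm, and at 14 days 2487.7, 2523.9 and 2712.7 in mdx diaphragm and 2821.7, 2520.9 and 3841.9 in control diaphragm. Those arrays overlapped, at differences of -0.41 and -0.23 without a call. At 23 days they were 5526.6, 2184.9 and 2740.9 in mdx diaphragm, against 5245.8, 7343.6 and 4893.7 in control diaphragm, and the difference of -0.83 (adjusted p = 0.161) became a call without mdx replicate 1 (-1.22, adjusted p = 0.0385).

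The probe set 94057_g_at gave Scd1 differences of -1.81 at 28 days, -2.54 at 56 days and -2.31 at 112 days, each a call (adjusted p = 0.00115, 4.7e-06 and 1.65e-05). Its 56-day signals were 1319.0, 1050.5 and 1400.4 in mdx diaphragm, against 8211.2, 8909.0 and 5502.8 in control diaphragm, and its 112-day signals were 3007.2, 2928.8 and 1463.3 in mdx diaphragm, against 10622.7, 9996.7 and 15346.5 in control diaphragm. The control arrays were all higher, and the 56-day difference was the largest among the 12 probe sets at any age. At 7, 14 and 23 days it gave -0.94, -0.11 and -0.98, none of them a call. The remaining probe set, 94058_r_at, was dim, at 43.2 to 634.5 over the 36 arrays, and gave differences of -0.21 to 0.28 with an SE of 0.665 and 0 calls. Its group means ran from 164.8 to 391.7, close to background, and it was less precise than the other 2. Its 56-day interval, from -1.44 to 1.28 (95%), did not hold their fitted differences, which have errors of their own. Those were -1.86 by 94056_at and -2.54 by 94057_g_at at that age. At so dim a signal 94058_r_at is not weighed against the other probe sets of Scd1, and why it differed was not tested.

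Cytosolic phosphoenolpyruvate carboxykinase (Pck1, 160481_at), which in fat cells makes the glycerol backbone of triglyceride and in liver and kidney makes glucose, was lower at 56 days. It read 338.4, 243.0 and 411.8 in mdx diaphragm, against 1190.3, 1495.2 and 625.7 in control diaphragm, without overlap. The difference was -1.59 ± 0.486 (SE, adjusted p = 0.0228), and with albumin as a covariate it was no longer a call (-1.04, adjusted p = 0.142). Nor was it one with mdx replicate 1 (-1.62, 0.0569) or 2 (-1.40, 0.0865) left out, or control replicate 1 (-1.49, 0.0798) or 2 (-1.33, 0.116). Without the arrays high in albumin the call was kept (-1.49, adjusted p = 0.0231).

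Pck1 read 465.7, 391.5 and 420.7 in mdx diaphragm, against 815.6, 1294.9 and 1633.0 in control diaphragm at 112 days, and 563.0, 439.3 and 447.0 in mdx diaphragm, against 996.6, 866.4 and 1185.6 in control diaphragm at 28 days. At neither age did the arrays overlap, yet -1.43 (adjusted p = 0.0506) and -1.02 (adjusted p = 0.371) missed the threshold. Without control replicate 1 the 112-day difference was a call (-1.70, adjusted p = 0.0405). The 7-day arrays were the most scattered, at 826.2, 100.3 and 147.4 in mdx diaphragm and 502.4, 132.0 and 692.4 in control diaphragm. At 7, 14 and 23 days the differences were -0.55, -0.14 and -0.13, all without a call, and the mean over the ages was -0.81 (adjusted p = 0.0036).

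Carbonic anhydrase 3 (Car3, 160375_at), a cytosolic enzyme abundant in fat cells and in slow muscle fibres, was lower in mdx diaphragm at 4 of the 6 ages. At 56 days it read 5561.3, 5541.2 and 10134.2 in mdx diaphragm, against 22536.2, 21827.9 and 17230.2 in control diaphragm, and at 112 days 14281.6, 8181.3 and 7538.5 in mdx diaphragm, against 33280.4, 23840.9 and 26688.7 in control diaphragm. The lowest control array was above the highest mdx array at both ages, and the differences were -1.58 (adjusted p = 3.19e-05) and -1.53 (adjusted p = 4.34e-05), each ± 0.243 (SE). Leaving out any 1 array kept them at -1.87 to -1.44 and -1.81 to -1.35, each a call.

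Car3 was the gene of the group that was called lower at 7 days, at 8322.7, 5367.0 and 6235.2 in mdx diaphragm, against 16339.2, 16473.9 and 15164.1 in control diaphragm. All 3 control arrays were above all 3 mdx arrays, and the difference was -1.29 (adjusted p = 0.00681). The Gapdh control ratio is the signal of the probe set named for the 3' end of the transcript over that named for the 5' end. It was at most 0.971 on the 36 arrays, and which genotype's RNA was the more intact was not read from it. The ratio did not overlap between the genotypes at that age either, at 0.32 to 0.83 in mdx and 0.0357 to 0.147 in control diaphragm. Nor did it at 23 days, at 0.431 to 0.493 in mdx and 0.35 to 0.361 in control diaphragm. With that ratio as a covariate the 7-day difference was -1.32 (adjusted p = 0.113), without the arrays high in albumin -1.50 (0.0626) and on its own 6 arrays -1.29 (0.132), none of them a call. One week later Car3 read 9562.8, 9395.1 and 10265.7 in mdx diaphragm, against 9549.2, 7820.3 and 9197.5 in control diaphragm, and the groups overlapped (0.14, adjusted p = 0.993). The 23-day arrays did not overlap, at 14878.4, 6999.1 and 16184.5 in mdx diaphragm, against 18868.8, 20131.4 and 16649.2 in control diaphragm, and the difference of -0.63 was not a call (adjusted p = 0.182), though it was one without mdx replicate 3 (-0.86, 0.0475).

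At 28 days Car3 read 10605.4, 10384.5 and 10077.0 in mdx diaphragm, against 19561.1, 17910.1 and 20510.1 in control diaphragm, with arrays of each genotype close together and well apart from the other. The difference was -0.90 (adjusted p = 0.034). Leaving out any 1 of the 6 arrays gave -0.95 to -0.85 and an adjusted p of 0.0663 to 0.145, so it was then no longer a call, at much the same size. The same was so without the arrays high in albumin (-0.90, adjusted p = 0.0702), none of which is of this age.

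Perilipin 4 (Plin4, 102763_at), a coat protein of lipid droplets in fat cells and muscle fibres, was lower from 23 days on. At 23 days it read 2846.7, 4932.9 and 3483.4 in mdx diaphragm, against 5636.5, 5835.2 and 8029.0 in control diaphragm, and at 28 days 2539.6, 3576.7 and 2388.0 in mdx diaphragm, against 4233.7, 5943.2 and 5161.6 in control diaphragm. No array overlapped with the other genotype, and the differences were -0.81 (adjusted p = 0.00921) and -0.85 (adjusted p = 0.00527). With mdx replicate 1 (-0.63, 0.15) or control replicate 3 (-0.64, 0.1) left out, the 23-day difference missed the threshold, and the 28-day one did so without mdx replicate 3 (-0.74, 0.0674) or control replicate 2 (-0.74, 0.0543). At 23 days the Gapdh ratio did not overlap between the genotypes either, and its part in the differences of that age was not tested further.

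The later ages gave the same picture for Plin4, at 2720.7, 2664.6 and 3792.4 in mdx diaphragm, against 5139.0, 6632.7 and 5581.8 in control diaphragm at 56 days. The 112-day signals were 2891.8, 2243.0 and 2891.7 in mdx diaphragm, against 4391.1, 4716.2 and 5390.3 in control diaphragm. The differences of -0.92 (adjusted p = 0.000861) and -0.85 (adjusted p = 0.00194), each ± 0.187 (SE), were calls, the 112-day one not without the arrays high in albumin (-0.60, adjusted p = 0.284). At 14 days the order was the other one, at 4626.9, 4767.1 and 4189.8 in mdx diaphragm, against 3507.6, 3552.9 and 3558.7 in control diaphragm, with a difference of 0.35 that was not a call (adjusted p = 0.819). The 7-day arrays overlapped (-0.19, adjusted p = 0.753).

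Lipoprotein lipase (Lpl), which frees fatty acids from circulating triglyceride and is made by muscle fibres and macrophages as well as fat cells, was lower at 56 and 112 days by both probe sets and at no earlier age. By 160083_at it read 4107.6, 4683.4 and 7087.3 in mdx diaphragm, against 11975.8, 8983.1 and 11533.9 in control diaphragm at 56 days, and 5928.8, 3175.7 and 3545.6 in mdx diaphragm, against 7741.2, 10304.1 and 7860.4 in control diaphragm at 112 days. No mdx array reached the lowest control array, and the differences were -1.06 (adjusted p = 0.00093) and -1.07 (adjusted p = 0.000788), each ± 0.216 (SE). From 7 to 28 days this probe set gave 0.41, 0.13, -0.21 and 0.11, with overlapping arrays at each of the 4 ages.

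By 95611_at Lpl read 10364.8, 18052.0 and 9458.3 in mdx diaphragm, against 21274.0, 22253.3 and 25777.5 in control diaphragm at 56 days, and 15870.9, 13731.7 and 18964.5 in mdx diaphragm, against 31935.3, 30350.2 and 23666.0 in control diaphragm at 112 days. These arrays did not overlap either, and the differences were -0.93 (adjusted p = 0.00747) and -0.82 (adjusted p = 0.0203). The 56-day difference by 95611_at was no longer a call with mdx replicate 3 left out (-0.75, adjusted p = 0.0516) and under quantile normalization (-0.62, 0.0733). At 112 days the same held for mdx replicate 2 (-0.71, 0.101) and for control replicates 1 (-0.74, 0.0815) and 2 (-0.78, 0.0699). Without the arrays high in albumin the 112-day differences were -0.75 by 160083_at and -0.88 by 95611_at, neither of them a call (adjusted p = 0.121 for each). At 7 days 95611_at read 23865.1, 14139.2 and 14482.5 in mdx diaphragm, against 12907.2, 8796.5 and 12336.8 in control diaphragm, all mdx arrays being above the control arrays, and the difference of 0.60 was not a call (adjusted p = 0.352).

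Fatty acid binding protein 4 (Fabp4, 100567_at), the carrier of fatty acids in fat cells, was not called lower or higher at any age. At 56 days it read 2555.2, 2140.5 and 1825.4 in mdx diaphragm, against 2136.2, 1695.8 and 1768.6 in control diaphragm, and at 112 days 2432.3, 1004.5 and 2047.3 in mdx diaphragm, against 2595.9, 2127.0 and 2341.0 in control diaphragm. The groups overlapped at both ages, and the low value at 112 days was on mdx replicate 2. The differences were 0.21 at 56 days, with a 95% interval from -0.20 to 0.62, and -0.45 at 112 days, from -0.86 to -0.04 (adjusted p = 0.492 and 0.154). Without mdx replicate 1 the 112-day difference was a call (-0.70, adjusted p = 0.0215). At 7 days Fabp4 read 2275.1, 2098.2 and 1865.7 in mdx diaphragm, against 1628.5, 1419.2 and 1564.3 in control diaphragm, all mdx arrays being the higher ones, at 0.43 (adjusted p = 0.449). Its mean over the ages was 0.02, with an interval from -0.15 to 0.18, while the other fat genes except Retn were lower in that mean by at least 1 probe set. Whether Fabp4 differed from the other genes in this was not tested.

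In control diaphragm most of the fat genes rose with age. Between 7 and 112 days 10 of 12 probe sets, reading 8 of the 9 genes, were called higher at 112 days, against 21.4% of all tested probe sets, and 0 lower, against 20.3%. The Gapdh ratio of the control arrays did not overlap between these ages either, at 0.518 to 0.93 at 112 days and 0.0357 to 0.147 at 7 days, and with it as a covariate 5 of 12 were called higher. The share of all probe sets called higher with this covariate is not given here, and the part of the ratio in the change was not tested further. The 112-day over 7-day differences on the log2 scale were 3.46 for Scd1 (94056_at), 3.39 for Retn, 3.01 for Adig, 1.63 for Pck1, 1.50 for Adipoq, 0.79 for Car3 and 0.60 for Fabp4. The values for Fabp4 and Car3 were no longer calls without control replicate 1 at 112 days (0.53 and 0.66, adjusted p = 0.0688 and 0.0601), and those for Adipoq (1.00, 0.0662), Pck1 (0.99, 0.106) and Fabp4 (0.55, 0.0563) without control replicate 2 at 7 days. The exceptions were Plin4 (0.45, adjusted p = 0.0525) and the dim Scd1 probe set (-0.05, 0.954). Adig averaged 3068 ± 526 at 112 days and 361.9 ± 127 at 7 days in control diaphragm (SD, n = 3 each). Scd1 (94056_at) averaged 23232 ± 4484 and 2149.8 ± 774 at the same ages.

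In mdx diaphragm 4 of 12 probe sets were called higher at 112 than at 7 days, against 8.18% of all, and 0 lower, against 9.18%. They were Adipoq (1.97, adjusted p = 0.000991), Adig (1.01, 0.018) and the bright pair of Scd1 (1.91 and 1.74, 2.84e-05 and 0.000452). The Adig value was no longer a call without mdx replicate 3 at 7 days (0.60, adjusted p = 0.217), mdx replicate 1 at 112 days (0.79, 0.0993) or with quantile normalization (0.84, 0.0612). Adig reached its highest mdx mean at 23 days, 1284 ± 247, and averaged 562.4 ± 176 at 112 days, while the control mean was highest at 56 days, 3477 ± 800. An F test over the 6 ages within a genotype called 8 of 12 probe sets in mdx (55% of all) and 11 of 12 in control diaphragm (62.4% of all), and such movement with age was common on the whole array.

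The change between 7 and 112 days (112-day minus 7-day log2 value) was lower for mdx than for control arrays, as tested by the interaction, for 5 of 12 probe sets (3.59% of all), and higher for 0 (6.25% of all). These were Adig (-2.00 ± 0.427, SE, adjusted p = 0.00247), Lpl by both probe sets (-1.48 and -1.42, 0.00176 and 0.00644), Scd1 by 94056_at (-1.55, 0.0199) and Fabp4 (-0.87, 0.0477). Scd1 by 94057_g_at gave -1.37 and missed the threshold (adjusted p = 0.0738). For Car3, which already differed at 7 days, the interaction was -0.24 (adjusted p = 0.717), and for Adipoq it was 0.47 (0.672). The counts were 2 with the Gapdh ratio as a covariate and 1, Lpl by 160083_at, without the arrays high in albumin, and 3 to 6 with single arrays left out. The Scd1 interaction missed the threshold without mdx replicate 1 (-1.42, 0.0624) or control replicate 2 (-1.32, 0.0622) of 7 days, and without mdx replicate 2 (-1.45, 0.0505) or control replicate 1 (-1.39, 0.0594) of 112 days. Fabp4 was not called in 9 of the 12 fits that leave out 1 array, and gave -0.50 without mdx replicate 2 at 112 days (adjusted p = 0.176). This test shares its arrays with the comparisons at 7 and 112 days. The share of all probe sets called under these alternatives is not given here.

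Within groups, the array highest for Adipoq was often the highest for some of the other fat genes, and less often for Car3, Fabp4 and Lpl. The array with the highest Adipoq signal in its group was also the highest for Retn, Pck1 and Scd1 (94056_at) in 8 of the 12 groups each, for Plin4 in 7 and for Adig in 6. For Car3 this was so in 5 groups, for Fabp4 in 4 and for Lpl (95611_at) in 2. The array lowest for Adipoq was also the lowest for Scd1 in 8 groups and for Retn, Adig and Plin4 in 6 each. For Pck1, Car3 and Fabp4 this was so in 5 each, and for Lpl in 4. With 3 arrays a group some such matches arise without any link between genes, and the share over all probe sets is not given here. Control replicate 1 at 7 days read 5040.4 for Adipoq and 594.9 for Retn, and mdx replicate 1 at 23 days read 8260.8 and 2139.4, each several times the level of the other arrays of its group. Genes read from the same RNA share their array's composition and labelling, so these counts are a description.

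**Figure D3:**
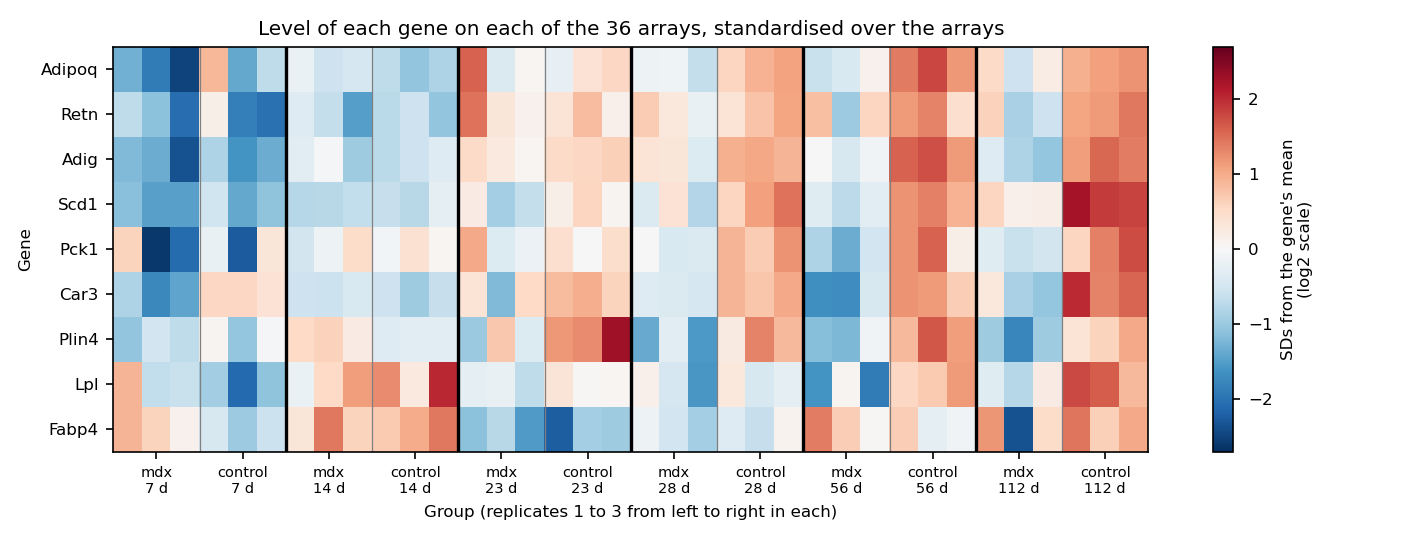
Level of each of the 9 genes (rows, the brightest probe set of each gene) on each of the 36 arrays (columns, mdx before control at each age), in SDs from that gene's mean over all arrays on the log2 scale, from blue (low) to red (high). The control arrays of 28, 56 and 112 days are red for the genes from Adipoq to Car3, and mdx replicate 1 at 23 days is red for Adipoq and Retn while the other arrays of its group are paler.

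Beyond these genes, 53 other fat and lipid genes on 4 lists were tested. At 56 days 16 of the 53 were lower in mdx (7.38% of all probe sets were) and 4 higher (9.27%), and at 112 days 11 were lower (4.52%) and 2 higher (7.65%). Of the 20 genes called at 56 days 12 were called with any 1 of the 6 arrays left out, and of the 13 called at 112 days 8 were. The counts of lower genes were 1 at 7 days (0.409% of all), 0 at 14 days (0.0323%), 2 at 23 days (0.807%) and 4 at 28 days (0.538%). Higher calls were 0 at 7 days (0.0538%) and 14 days (0.161%), and 1 at 23 days (2.68%) and 28 days (2.42%), Dlk1 at each. The median difference of the 53 was -0.43 at 56 days and -0.43 at 112 days, nearer 0 than that of the 12 probe sets above.

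Among fatty acid and triglyceride synthesis genes 5 of 17 were lower at 56 days and 5 at 112 days. Malic enzyme (Me1), a source of NADPH for fatty acid synthesis, gave -0.97 (adjusted p = 5.56e-05) and -0.80 (0.00056). Its 56-day signals were 2095.3, 1585.8 and 1984.6 in mdx diaphragm, against 3647.1, 3696.8 and 3759.9 in control diaphragm, with all mdx arrays lower. Lipin 1 (Lpin1), the phosphatase that makes diacylglycerol, gave -0.68 (adjusted p = 0.00023) and -0.92 (2.75e-06), and fatty acid synthase (Fasn) gave -0.81 (0.015) and -0.89 (0.00871). Fasn read 2169.7, 1728.9 and 2499.5 in mdx diaphragm, against 3938.5, 3383.7 and 3891.5 in control diaphragm at 56 days, again without overlap. It was no longer a call without mdx replicate 2 (-0.67, 0.0823) at 56 days or without mdx replicate 2 (-0.76, 0.063) at 112 days, where the brackets give the difference and its adjusted p, here and for the genes below with the array whose loss gave the highest p. Thrsp, a regulator of lipid synthesis, gave -0.76 and -0.78 (adjusted p = 0.00412 and 0.00363), and the mitochondrial acyltransferase Gpam was lower at 23, 28 and 56 days (-0.72, -0.49 and -0.69, adjusted p = 0.00116, 0.0389 and 0.00068) but not called at 112 days (-0.36, adjusted p = 0.0808). Its 28-day call was lost without mdx replicate 3 (-0.37, 0.314). Lpin1 was also called lower at 23 and 28 days, and Me1 and Thrsp at 28 days, each call being lost with some 1 array left out. At 7 days Thrsp read 4105.6, 3904.5 and 4786.6 in mdx diaphragm, against 2771.3, 2798.5 and 2686.8 in control diaphragm. All mdx arrays were then the higher ones, without a call. Gpd1, which makes glycerol phosphate, was lower at 112 days (-0.73, adjusted p = 0.0432), though not without control replicate 1 (-0.53, 0.222).

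The desaturase Scd2, a paralog of Scd1, was higher in mdx diaphragm at 56 and 112 days, when Scd1 was lower. It read 4053.9, 3873.1 and 3572.0 in mdx diaphragm, against 2638.8, 2218.5 and 2467.7 in control diaphragm at 56 days, all mdx arrays being higher, and was called higher at 56 days (0.65, adjusted p = 0.00645) and 112 days (0.49, 0.0461). At 7 days it was called lower (-0.74, adjusted p = 0.0266). The 112-day value was no longer a call without control replicate 2 (0.37, 0.226), nor the 7-day value without mdx replicate 1 (-0.65, 0.246). Fabp5, a fatty acid carrier of skin, macrophages and fat, was higher at 56 days (0.89, adjusted p = 0.0117) and gave -0.06 at 112 days (0.91), the 56-day call being lost without control replicate 2 (0.74, 0.0814).

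Of 15 droplet, lipolysis and lipid uptake genes 5 were lower at 56 days and 5 at 112 days. Hormone-sensitive lipase (Lipe), which splits stored fat, read 635.2, 511.0 and 591.3 in mdx diaphragm, against 1447.8, 1807.1 and 1135.1 in control diaphragm at 56 days, without overlap. Its differences were -1.27 (adjusted p = 0.00387) and, at 112 days, -1.13 (0.0105), the last lost without control replicate 2 (-0.93, 0.078). The fatty acid transporter Cd36, made by muscle, endothelium and fat, gave -1.32 (adjusted p = 7.86e-06) and -0.91 (0.000873). Monoglyceride lipase (Mgll) gave -0.63 and -0.77 (adjusted p = 0.00118 and 0.000115), and the insulin-responsive glucose transporter of muscle and fat (Slc2a4) -0.96 and -0.86 (0.000655 and 0.00203). Cidec, which fuses droplets in fat cells, was dim, at 29.4, 230.8 and 62.2 in mdx diaphragm, against 343.6, 716.7 and 405.4 in control diaphragm at 56 days, and was lower at that age (-2.11, adjusted p = 0.0126), though not without mdx replicate 1 (-1.66, 0.0961). Caveolin 1 (Cav1), of the surface pits of fat and endothelial cells, was lower at 112 days (-0.73, 0.00241). Its partner Cavin1 was called lower (-0.37, 0.00336) and the lipoprotein Apoe, also made by macrophages, higher (0.64, 0.00544) in the mean over the ages alone.

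Of 16 other adipocyte hormones and regulators 4 were lower at 56 days and 0 at 112 days, where in limma 5 reached an unadjusted p under 0.05. The nuclear receptor Pparg, which directs fat cell formation, read 285.4, 154.7 and 256.3 in mdx diaphragm, against 413.3, 477.7 and 548.5 in control diaphragm at 56 days, all mdx arrays being lower (-0.98, adjusted p = 0.0251), and was not called without mdx replicate 2 (-0.75, 0.135). Its partner Rxrg, also made in muscle, gave -1.33 (adjusted p = 0.0392), and was not called without mdx replicate 3 (-1.13, 0.125) or without any other 1 of the 6 arrays. Angiotensinogen (Agt, -2.32, 0.00137) and the retinol carrier Rbp4 (-3.09, 0.0164) were lower as well, Rbp4 not without control replicate 1 (-2.43, 0.114). Liver makes both, and albumin, which liver makes too, was lower on all 3 mdx arrays at 56 days than on any control array, with a difference of -3.34 ± 1.47 (SE) that was not a call (adjusted p = 0.115). The part of liver RNA in these values was not tested. Dlk1, which marks fat cell precursors and satellite cells, was the gene of this list that was higher, at 23 (0.83), 28 (1.29) and 56 days (1.19; adjusted p = 0.0246, 0.000218 and 0.000245). At 23 days Dlk1 was not called without mdx replicate 1 (0.70, 0.212).

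Of 6 brown fat genes 2 were lower at 56 days, the cytochrome oxidase subunit Cox7a1 (-0.60, adjusted p = 0.00836) and the coactivator Ppargc1a (-1.01, 0.0134), both also made in muscle. These calls were lost without mdx replicate 1 (-0.39, 0.103) for Cox7a1 and without control replicate 1 (-0.94, 0.0604) for Ppargc1a. Cox7a1 was lower at 112 days too (-0.62, 0.00771), though not without mdx replicate 3 (-0.53, 0.055), and Cox8b in the mean over the ages alone (-0.28, 0.0494). The deiodinase Dio2, which activates thyroid hormone in brown fat and muscle, was higher at 56 days (1.46, adjusted p = 1.83e-05) and 112 days (1.75, 7.6e-07).

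**Figure D4:**
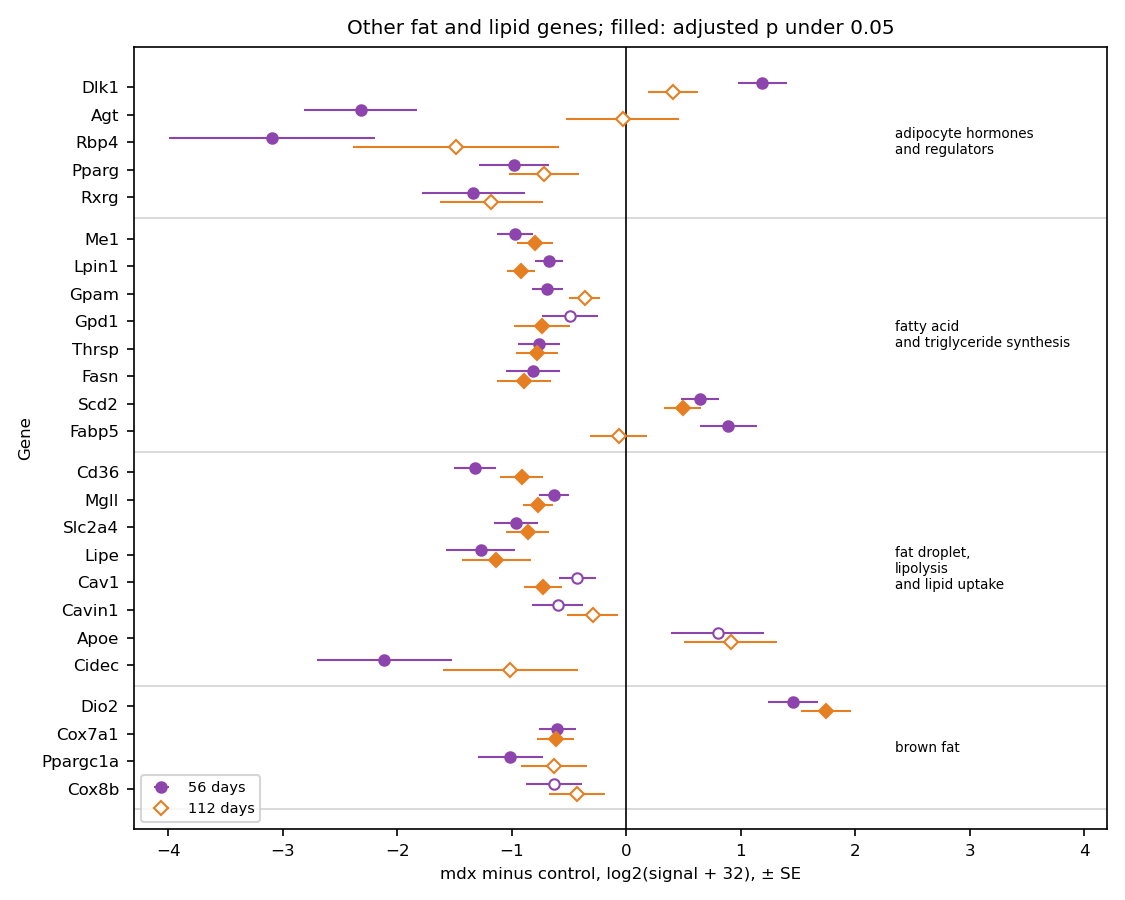
Difference between mdx and control diaphragm, as log2(signal + 32) ± SE, for the named genes of the 4 lists of other fat and lipid genes (rows) at 56 days (purple circles) and 112 days (orange diamonds), filled where the adjusted p is under 0.05. Most filled points lie left of 0, lower in mdx, and those of Dlk1, Scd2, Fabp5 and Dio2 lie right of it.

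Markers of other cell types differed between the genotypes too, and their part in the fat gene differences was not tested. Of all tested probe sets 2.68% were called higher at 23 days, 2.42% at 28 days, 9.27% at 56 days and 7.65% at 112 days. The shares called lower were 7.38% at 56 days and 4.52% at 112 days. Macrophage genes were higher in mdx for 10 of 11 at 23 days and 7 of 11 at 28 days. Their summed signal at 23 days was 38387.7 to 72111.0 on mdx arrays and 11748.9 to 13842.2 on control arrays. At 56 days 8 of 11 macrophage genes were higher in mdx, the summed signal of the list being 50980.1 to 61258.0 on mdx arrays and 16675.5 to 19443.1 on control arrays. The 112-day sums were 60537.7 to 63147.3 in mdx and 15901.1 to 16862.6 in control diaphragm, again with 8 of 11 higher. Of 9 fibroblast and matrix genes 4 were higher at 56 days and 6 at 112 days, with sums of 146652.9 to 175625.3 in mdx and 70335.7 to 86297.3 in control diaphragm at 112 days. Skeletal muscle genes were lower for 3 of 13 at 56 days, Actn3, Pygm and Eno3, and for 0 of 13 at 112 days (limma, 1 of 13 at an unadjusted p under 0.05). The muscle sums of the genotypes overlapped at both ages, at 130869.1 to 323041.4 in mdx and 275252.7 to 408982.8 in control diaphragm at 56 days.

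Genes of vessel and surface linings were lower too. Endothelial genes were lower for 3 of 7 at 56 days (7.38% of all tested probe sets) and 5 of 7 at 112 days (4.52%). Their sums at 112 days were 9056.7 to 10425.0 in mdx and 12733.1 to 14305.5 in control diaphragm. Mesothelial genes, of the cells that cover the diaphragm, were lower for 3 of 4 at 56 days and 2 of 4 at 112 days, beside the same shares. Their sums at 56 days were 2803.6 to 3677.3 in mdx and 5797.3 to 6771.7 in control diaphragm. Of 13 liver genes 0 were called at any age in limma, with 2 at an unadjusted p under 0.05 at 56 days and 2 at 112 days, and their median difference was -1.65 and -1.80 at those ages, while the sums of the list did not overlap at 56 days, at 6445.4 to 9077.9 in mdx and 9460.7 to 48269.5 in control diaphragm. Without the 9 arrays high in albumin, which leaves 3 mdx and 2 control arrays at 56 days, 9 of 12 fat gene probe sets were still called lower at 56 days, among them Adipoq (-1.81, adjusted p = 0.0231) and Adig (-1.87, 0.000965). The 2 control arrays kept at 56 days read 2577.4 and 668.1 for albumin, against 179.4 to 347.2 on the mdx arrays. This setting therefore did not even out albumin between the genotypes at that age, and cannot show its part. At 112 days 2 mdx arrays and 1 control array remained. The spread then came from the other groups, the lone control array being assumed to vary like them, and on that assumption 4 probe sets were called: Adig (-2.10, adjusted p = 0.00598), Scd1 (-2.17 and -2.32, 0.012 and 0.0111) and Car3 (-1.68, 0.0112).

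The genes whose signal was most like the mean standardised profile of the 9 fat genes over the 36 arrays, among 8296 probe sets with 1 symbol, were Chpt1 (Pearson r = 0.881), the cysteine dioxygenase Cdo1 (0.873), the epoxide hydrolase Ephx1 (0.87), Lpin1 (0.861), Bnip3 (0.848), Ube2b (0.843), Prxl2a (0.837) and Egln1 (0.835). These values are a description, since the arrays share age and genotype. The genes most like single members were Cdo1 for Adipoq (0.862) and Pck1 (0.816), Pla2g12a for Adig (0.925), Ube2b for Scd1 (0.895), Bckdhb for Retn (0.841) and Cpt2 for Plin4 (0.848). Car3 was most like Pvalb, the calcium buffer of fast fibres (0.862), and Lpl (95611_at) most like the ribosomal protein gene Rpl41 (0.857). Fabp4 was most like Htr7 (0.834), followed by Npy6r (0.793) and Cyp4a12b (0.79). Whether the Fabp4 probe set reads Fabp4 alone was not tested.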

How the data were processed

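RNA of 36 mouse diaphragm samples was read on 1-colour Affymetrix arrays with 12488 probe sets, 66 of them controls. The deposited values are linear intensities per probe set, and per the labels no more than that is known of how the authors made them, the software and its settings being not given in the sources used here. Within each array, the mean of the intensities between percentiles 2 and 98 was 1499.2 to 1499.7, so the arrays had been scaled to a common level before deposit. No further scaling was applied. Probe sets were named from GEO's platform annotation: 10833 had 1 symbol, 396 several and 1193 none. A comparison of symbols through gene IDs changed 0 of them.

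Probe sets over percentile 40 of all signals (374.5) on at least 3 arrays were tested, 9291 in all. Limma 3.58.1 in R 4.3.3 was fitted to log2(signal + 32) with 1 coefficient per group, using the 36 arrays together, with 24 residual degrees of freedom and a trend in the variance, and p-values were adjusted by Benjamini-Hochberg over all tested probe sets. Every p in the text comes from this fit or from an alternative to it. The fit was tested on simulated data. Correlations are Pearson's over the 36 arrays.

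The genes, the lists and the tests were chosen with earlier results of these data known. All member genes are named with every probe set of that symbol alone. From 4 lists of other fat and lipid genes those called at any age or in the mean are named, at most 8 a list by lowest adjusted p, and from lists of cell type markers at most 3. Lists are described by counts, sums and medians, without a test. The alternatives were array weights, quantile normalization, a filter at percentile 60 or none, pseudocounts of 8 and 128, a replicate block, albumin or the Gapdh ratio as a covariate, the 9 arrays with albumin above 10000 left out (1 control array then remains at 112 days, and the other groups supply the spread), the 6 arrays of an age alone, and each array left out in turn.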

Additional observations from a re-analysis of the deposited data

Results flagged for a closer look

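The difference between mdx and control diaphragm depended on age for 8 of the 12 probe sets, by the moderated F test over the 6 ages in limma, with adjustment over all tested probe sets. The adjusted p was 0.000495 for Adig, 0.00172 for Lpl by 160083_at, 0.00399 for Plin4, 0.00516 for Scd1 by 94057_g_at, 0.00526 for Car3, 0.0134 for Scd1 by 94056_at, 0.0268 for Lpl by 95611_at and 0.0331 for Adipoq. In each of these 6 genes the difference was nearer 0 or positive at 14 days and negative at 56 and 112 days. Adig gave -2.41 at 112 days and 0.12 at 14 days, and Plin4 gave -0.85 and 0.35. Car3 differed from the others in being called lower at 7 days (-1.29), with 0.14 at 14 days and -1.58 at 56 days. Adipoq ran alike without a 7-day call, at -1.53 (adjusted p = 0.119), 0.47 and -1.78 at these ages.

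The result for Adipoq was no longer past the threshold with any 1 of 8 arrays left out, control replicates 2 and 3 and mdx replicates 1 and 3 at 14 days, control replicate 1 at 23 days, and control replicate 2 and mdx replicates 1 and 2 at 56 days (adjusted p = 0.0501 to 0.0676). At 7 days mdx replicate 1 (adjusted p = 0.0795 without it) and control replicate 2 (0.0822) decided that for Lpl by 95611_at in the same way. The groups hold 3 arrays each, so no array was tested for standing apart from its group.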

How the results depend on the processing

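Counts of the 12 probe sets called lower were stable at 56 days, at 9 as reported and 8 to 9 over the alternatives and with single arrays left out, and for the mean over the ages, at 9 as reported and 7 to 10 over both. At 7 days the count was 1 as reported, 2 with array weights and 0 with the Gapdh ratio as a covariate, without the arrays high in albumin or on the 6 arrays of the age alone, and 1 to 2 with single arrays left out. At 23 days it was 1 as reported, 4 with array weights, 0 on the 6 arrays of the age alone and 0 to 2 with single arrays left out. At 28 days it was 4 as reported and 2 to 3 with single arrays left out. At 112 days it was 8 as reported and 4 without the arrays high in albumin, which leaves 2 mdx arrays and 1 control array. The count of probe sets whose difference depended on age was 8 as reported and 2 without those arrays. Between 7 and 112 days the higher calls in control diaphragm were 10 as reported, 5 with the Gapdh ratio as a covariate, 6 without the arrays high in albumin and 7 to 11 with single arrays left out, and in mdx diaphragm 4 as reported and 3 to 6. The calls of a lower change between 7 and 112 days in mdx than in control diaphragm were 5 as reported, 2 with the Gapdh ratio, 1 without the arrays high in albumin and 3 to 6 with single arrays left out. These alternatives for that change were chosen after seeing the data. The causes were not tested. The share of all probe sets called under each alternative, here and below, is not given, so a change in a count may be common to the whole array.

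Over 18 same-numbered pairs of arrays the correlation of deviations ran from -0.225 to 0.147, and 1 pair, of 28 days, was over 0.1. At that age the summed skeletal muscle signal ordered alike by replicate number in both genotypes. It was 271834.5, 151781.5 and 233051.1 in mdx diaphragm and 334550.5, 173087.9 and 254087.8 in control diaphragm. Whether the numbers pair arrays at 28 days was not settled. With the number as a replicate block the counts of lower calls were 1, 0, 1, 5, 9 and 9 from 7 to 112 days and 9 for the mean, and 4 for the change between 7 and 112 days.

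Of 4067 values for single probe sets under an alternative, 3893 stayed on their side of the threshold, 122 lost a call and 52 gained one. Among the values without a call 84 changed sign, and 0 values with a call did. For the 53 other fat and lipid genes, counted under the same alternatives after the data were seen, 13 to 18 were called lower at 56 days. At 112 days the count was 11 as reported, 3 without the arrays high in albumin and 2 on the 6 arrays of the age alone. The number of arrays limits the precision, and 94058_r_at (Scd1) and Cidec were close to background.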
